A study of Mus musculus with 9 samples.

Results

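The genes of mitochondrial ribosomal proteins were followed through the differentiation of mouse muscle precursors in culture. Members were all genes whose symbol starts with Mrpl or Mrps followed by a digit and that a probe set of the array named alone, each read from the probe set with the highest mean. This gave 77 genes of 19938 on the array, and all 77 passed the filter on low values that left 16582 genes for testing. The selection rule uses gene names and mean levels. Of the 693 member values (77 genes on 9 arrays), 0 lay at or below the median of their array.

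Mitochondria carry their own ribosome, the mitoribosome, which translates the few proteins encoded in mitochondrial DNA, all of them subunits of the respiratory chain and ATP synthase in mammals. Its ribosomal RNAs come from mitochondrial DNA, whereas every ribosomal protein is encoded in the nucleus, made in the cytosol and imported. Some of these proteins descend from those of the bacterial ribosome and others were added in mitochondria, and muscle fibres, which draw on oxidative metabolism, build many mitochondria as they form.

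The cells were primary myoblasts, the dividing precursors of skeletal muscle, from wild type Balb/c mice. Cycling myoblasts (day 0), day 2 myotubes and day 5 myotubes were each measured on 3 Affymetrix arrays, where myotubes are the multinucleate cells that myoblasts form by fusion. By their titles the myotubes stood in differentiating medium, but the growth protocol given for all samples, cycling and differentiated, lists a growth medium with serum and bFGF. Age and sex of the mice are not given in the sources used here, and nothing says whether the 3 replicates of a time came from separate cultures or animals, so p-values measure only how far these arrays differ, which may be technical.

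Changes are log2 fold changes (log2FC) on 2 scales, because the authors ran the RMA normalization for each time point on its own. The first scale is that of the values as deposited, and the second, called the common scale, puts all 9 arrays on 1 distribution by quantile normalization. As deposited, array medians were 4.33 before differentiation, 4.26 at day 2 and 3.98 at day 5. The shift from the deposited to the common scale raised the members' log2FC by 0.09 to 0.35 at day 2 against cycling myoblasts and by 0.75 to 0.99 at day 5. For all tested genes the median log2FC went from -0.01 to 0.09 at day 2 and from -0.37 to 0.17 at day 5. Members all lay above their array medians, whereas all genes include lower ones, so shares of all genes given below are not matched for level. The effect of normalizing by time point cannot be told apart from that of time, so a member is said here to have risen or fallen only where it changed at least 1.5-fold in the same direction on both scales, with a limma adjusted p under 0.05 on both. Many replicate values were identical. On all 3 arrays of a time point, 24 members had 1 value in the cycling cells, 52 at day 2 and 56 at day 5. Of all probe sets on the array, 47.9%, 60.2% and 56.7% were identical in this way at those times, so identical values were not particular to the members. For members with identical values the spread between replicates at that time is 0 as deposited. The model pools the spread over the 3 times, so members identical at every time, such as Mrpl33, rest on limma's shared variance as deposited. Members identical at only some times also draw on the spread at the others. The cause of the identical values was not tested.

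Cycling myoblasts varied most. Replicate 1 was strictly the lowest of the 3 cycling arrays in 43 of the 77 members, against 3 members for replicate 2 and 0 for replicate 3. The median of the members was 7.38, 7.49 and 7.50 on the 3 cycling arrays, 7.61, 7.62 and 7.61 on the day 2 arrays and 7.06 on each day 5 array. The widest member was Mrpl22, a large subunit protein, which read 6.04, 6.48 and 7.08 in cycling myoblasts. Results without that replicate 1 are given beside the counts below.

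Marker genes were checked against the labels. The 4 myoblast markers (Myod1, Myf5, Pax7 and Des) and the 6 myotube markers (Myog, Myh3, Ckm, Acta1, Tnnt3 and Mymk) lay above the array median at every time. All 6 myotube markers and Des rose by day 2, Myod1, Myf5 and Pax7 fell, and the proliferation markers Mki67 and Top2a fell, from a summed level of 18.31 to 18.35 over the cycling arrays to 6.70 at day 2 and 5.96 at day 5. Of the markers of other cells, 0 of 4 endothelial genes were above the array median at any time, with summed levels of 12.51 to 12.69, 13.31 to 13.41 and 13.54 at days 0, 2 and 5. Of 3 fibroblast genes 2 were above it at days 0 and 2 and 3 at day 5, with summed levels of 18.53 to 18.57, 14.996 and 14.09. Their means at days 0, 2 and 5 were 8.92, 6.06 and 4.77 for Col3a1, 5.35, 5.27 and 4.96 for Col1a1, and 4.29, 3.67 and 4.36 for Pdgfra. The listed fibroblast genes Dcn and Lum were not among the tested genes. Of 3 macrophage genes 1 was above the array median in cycling myoblasts and 0 later, with summed levels of 10.69, 11.41 and 10.07. Of 2 adipocyte genes 1 was above it at each time, with summed levels of 7.07 to 7.11, 7.66, and 7.51 to 7.68. The Schwann cell gene Sox10 read 4.23, 4.37 and 4.14, below the array median in cycling myoblasts and above it later. The part of these cells in the results below was not tested. In RNA from whole cultures, a change in the number of cells of a type and a change in RNA per cell cannot be told apart.

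At day 2, 16 of the 77 mitoribosomal genes had risen and 1 had fallen. Over all tested genes the same rule called 13.3% higher and 15.4% lower, against 20.8% and 1.30% of the members. The members had a median log2FC of 0.27 as deposited and 0.49 on the common scale, and all genes had -0.01 and 0.09. As deposited alone 16 rose and 2 fell (15.7% and 21.3% of all genes), and on the common scale alone 29 rose and 1 fell (17.9% and 15.7%). With each array centred on its median, 19 rose and 2 fell (18.8% and 19.0%). Most members moved by less than 1.5-fold: at any size, 53 were higher and 6 lower on both scales at the same adjusted p, against 42.8% and 37.4% of all genes. As deposited, all 3 day 2 arrays lay above all 3 cycling arrays in 56 members and below them in 16, and the groups overlapped in 5 (Mrpl13, Mrpl20, Mrpl22, Mrpl35 and Mrps12). Over all genes the groups did not overlap, in either direction, in 95.8%. Without cycling replicate 1, an alternative chosen after seeing the data, 15 members rose, 1 fell and the median as deposited was 0.23. The share of all genes under that alternative is not given here.

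**Figure D1:**
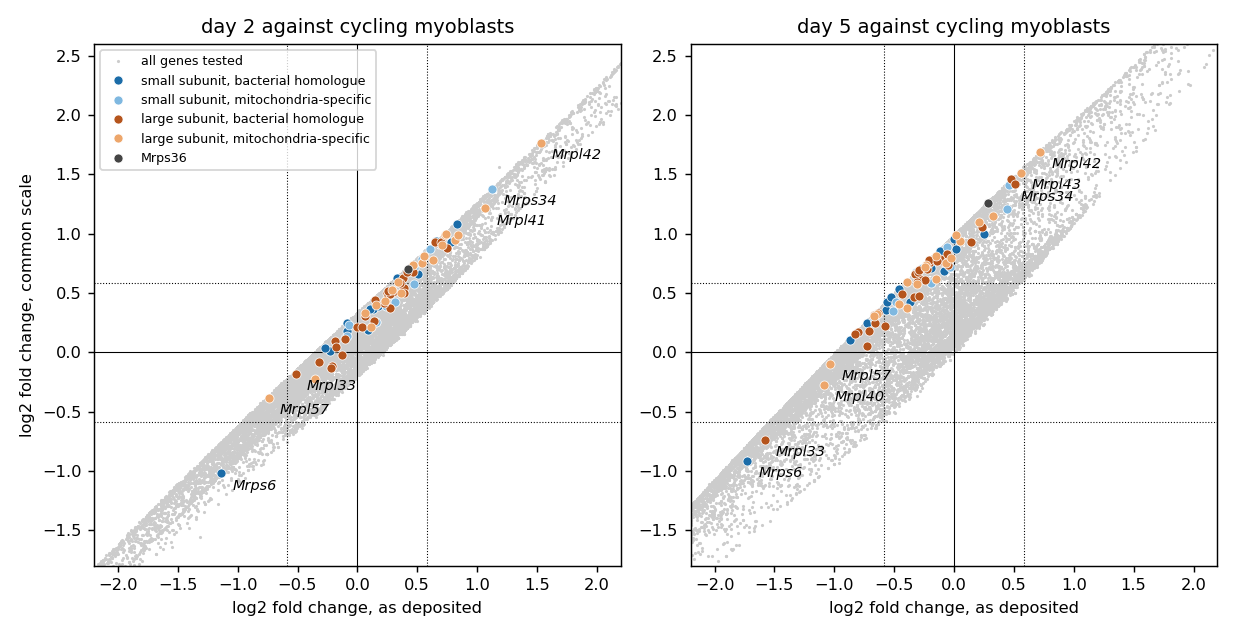
Log2 fold change of every tested gene (grey) and of the 77 mitoribosomal genes (coloured by subunit group), as deposited on the x axis and on the common scale on the y axis, for day 2 (left) and day 5 (right) against cycling myoblasts. Dotted lines mark a 1.5-fold change; at day 2 most members lie above 0 on both axes, while at day 5 most lie left of 0 on the x axis and above 0 on the y axis, and genes beyond the plotted range are not shown.

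The rises were most frequent among the large subunit proteins grouped here as mitochondria-specific, of which 8 of 20 rose and 0 fell. At day 2 they had medians of 0.50 (deposited) and 0.75 (common scale). Those 8 were Mrpl37, Mrpl41, Mrpl42, Mrpl43, Mrpl45, Mrpl48, Mrpl50 and Mrpl51. The group of 20 also holds Mrps18a, and the mitochondria-specific small subunit group holds Mrps18b, though both are relatives of a bacterial protein. Of the 30 large subunit proteins with a bacterial homologue 3 rose (Mrpl9, Mrpl14 and Mrpl30) and 0 fell, with medians of 0.25 and 0.46. In the small subunit, 2 of 10 mitochondria-specific proteins rose (Mrps34 and Mrps35; medians 0.40 and 0.50). Of its 16 with a bacterial homologue 3 rose (Mrps10, Mrps11 and Mrps21) and 1 fell (Mrps6), with medians of 0.12 and 0.31. Of all tested genes 13.3% rose and 15.4% fell at day 2 by the same rule. The share of risers among large subunit proteins with a bacterial homologue (3 of 30) lay below that of all genes. Both small subunit groups (2 of 10 and 3 of 16) lay only a little above it. Whether the shares differ between the subunit groups, or from that of all genes, was not tested.

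Start regions are printed for 5 members as examples. They are Mrpl42, the member that rose furthest, Mrpl43 and Mrpl9, next highest at day 5, and Mrpl33 and Mrps6, which fell. Other leading risers at day 2 are not printed. Of these, Mrpl41 and Mrps10 held no searched motif from 250 bases before to 50 after the start, and Mrpl37 and Mrpl51 held some. Each line is 250 bases that end at the base before the RefSeq transcript start (GRCm38.p6), 5′ to 3′ on the gene's strand, with searched motifs in capitals. Mrpl42 spans chr10:95501950-95502199 on the minus strand, Mrpl43 chr19:45006443-45006692 (minus), Mrpl9 chr3:94443086-94443335 (plus), Mrpl33 chr5:31613701-31613950 (plus) and Mrps6 chr16:92058086-92058335 (plus).
Mrpl42: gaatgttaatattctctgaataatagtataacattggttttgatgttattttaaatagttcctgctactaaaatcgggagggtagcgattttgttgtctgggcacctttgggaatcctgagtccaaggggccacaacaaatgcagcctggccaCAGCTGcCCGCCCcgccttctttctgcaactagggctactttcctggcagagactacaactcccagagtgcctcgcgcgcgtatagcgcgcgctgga
Mrpl43: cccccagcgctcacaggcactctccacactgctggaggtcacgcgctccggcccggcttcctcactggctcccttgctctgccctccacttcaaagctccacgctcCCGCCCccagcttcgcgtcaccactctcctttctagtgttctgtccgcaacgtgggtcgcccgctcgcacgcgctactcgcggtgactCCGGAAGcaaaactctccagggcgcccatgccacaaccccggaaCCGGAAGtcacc
Mrpl9: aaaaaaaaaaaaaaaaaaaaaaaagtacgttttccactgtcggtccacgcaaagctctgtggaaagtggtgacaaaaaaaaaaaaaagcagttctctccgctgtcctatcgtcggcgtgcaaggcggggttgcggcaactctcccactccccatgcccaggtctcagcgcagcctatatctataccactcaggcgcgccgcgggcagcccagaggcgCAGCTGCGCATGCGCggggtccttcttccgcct
Mrpl33: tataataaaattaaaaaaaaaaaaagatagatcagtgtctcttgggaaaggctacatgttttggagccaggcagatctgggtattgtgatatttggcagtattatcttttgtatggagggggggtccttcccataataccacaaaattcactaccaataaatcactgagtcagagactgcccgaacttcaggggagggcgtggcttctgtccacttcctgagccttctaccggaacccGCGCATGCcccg
Mrps6: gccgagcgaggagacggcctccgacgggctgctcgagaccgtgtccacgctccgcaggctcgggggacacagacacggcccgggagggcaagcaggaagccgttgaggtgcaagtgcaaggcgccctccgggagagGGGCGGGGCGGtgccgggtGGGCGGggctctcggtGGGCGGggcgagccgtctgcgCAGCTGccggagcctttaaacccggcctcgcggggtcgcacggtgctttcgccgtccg

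Capitals in Mrpl42 mark CAGCTG, the E-box form bound by myogenic factors, and CCGCCC, the reverse complement of the Sp1 motif GGGCGG, 97 and 90 bases before the start. In Mrpl43 they mark CCGCCC and 2 copies of CCGGAAG, the core bound by ETS factors such as GABP, 144, 56 and 12 bases before the start. In Mrpl9 CAGCTG shares its last base with a palindromic stretch that holds the NRF1 core GCATGCGC on both strands, and in Mrpl33 that core stands 12 bases before the start as GCGCATGC. Mrps6 holds 4 copies of GGGCGG, a pair of which overlap, and 1 CAGCTG. The longer windows counted below, which run to 50 bases after the start, also hold the YY1 motif in Mrpl42 and CCGGAAG in Mrpl33. A match describes letters and not a bound site.

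Mrpl42, a mitochondria-specific protein of the large subunit, rose furthest. Its deposited values were 5.62, 5.63 and 5.76 in cycling myoblasts, 7.17, 7.17 and 7.26 at day 2, and 6.40, 6.40 and 6.36 at day 5. Each time point lay apart from the others, with day 2 highest and cycling myoblasts lowest. The log2FC at day 2 was 1.53 ± 0.0444 (SE, 3 arrays against 3) as deposited, a 2.89-fold rise, and 1.76 ± 0.0397 on the common scale, with limma adjusted p = 3.48e-08 and 1.97e-09. On the common scale Mrpl42 averaged 5.27 ± 0.0707 before differentiation, 7.03 ± 0.0459 at day 2 and 6.96 ± 0.0339 at day 5 (SD, n = 3). On that scale its day 5 level was not distinguished from day 2 (log2FC -0.08, limma adjusted p = 0.108).

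Mrps34, a mitochondria-specific small subunit protein needed for that subunit's stability, was next. It read 6.44, 6.60 and 6.75 in cycling myoblasts, 7.72 on every day 2 array and 7.06 on every day 5 array. All later arrays were above all cycling arrays. Its log2FC at day 2 came to 1.13 ± 0.0702 as deposited and 1.38 ± 0.0633 on the common scale (limma adjusted p = 3.34e-06 and 1.84e-07).

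Mrpl41, another mitochondria-specific large subunit protein, read 8.28, 8.28 and 8.34 in cycling myoblasts, 9.35, 9.35 and 9.40 at day 2, and 8.29, 8.29 and 8.24 at day 5. Day 2 stood alone, and the day 5 arrays overlapped the cycling arrays as deposited. The log2FC at day 2 was 1.07 ± 0.0258 and 1.21 ± 0.0255 (limma adjusted p = 1.16e-08 and 1.27e-09). A second probe set of Mrpl41 gave 1.25 and 1.47 at day 2.

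Mrps10, a small subunit protein of bacterial descent, read 6.27, 6.31 and 6.57 in cycling myoblasts, 7.19, 7.22 and 7.22 at day 2, and 6.01, 6.05 and 6.12 at day 5. The 3 groups did not overlap, and as deposited day 5 was the lowest. Its log2FC at day 2 was 0.83 ± 0.0773 and 1.08 ± 0.0675 (limma adjusted p = 3.62e-05 and 1.37e-06). Mrpl37, a mitochondria-specific protein of the large subunit, read 8.14 on every cycling array, 8.95 on every day 2 array and 8.49, 8.45 and 8.45 at day 5, with a log2FC at day 2 of 0.81 and 0.95.

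Mrpl51, also mitochondria-specific, rose by its chosen probe set only. That probe set read 8.94, 9.09 and 9.12 in cycling myoblasts, 9.89 on every day 2 array and 8.90 on every day 5 array, a log2FC at day 2 of 0.84 and 0.99. Its second probe set gave 0.08 and 0.28. With the mean of all probe sets of a gene in place of the highest, 15 members rose at day 2, and the share of all genes on that basis is not given here.

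The remaining 10 risers had a log2FC of 0.60 to 0.78 as deposited and 0.78 to 1.00 on the common scale. Mrps21 read 8.97, 9.09 and 9.32 in cycling myoblasts and 9.91, 9.85 and 9.96 at day 2. Mrpl45, which faces the inner membrane near the tunnel where the new protein leaves, read 7.55, 7.64 and 7.63 and then 8.31 on every day 2 array. Mrpl14, which lies at the interface with the small subunit, read 5.79, 5.84 and 5.84 and then 6.47 on every day 2 array. In each of these 3 genes all day 2 arrays were above all cycling arrays.

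**Figure D2:**
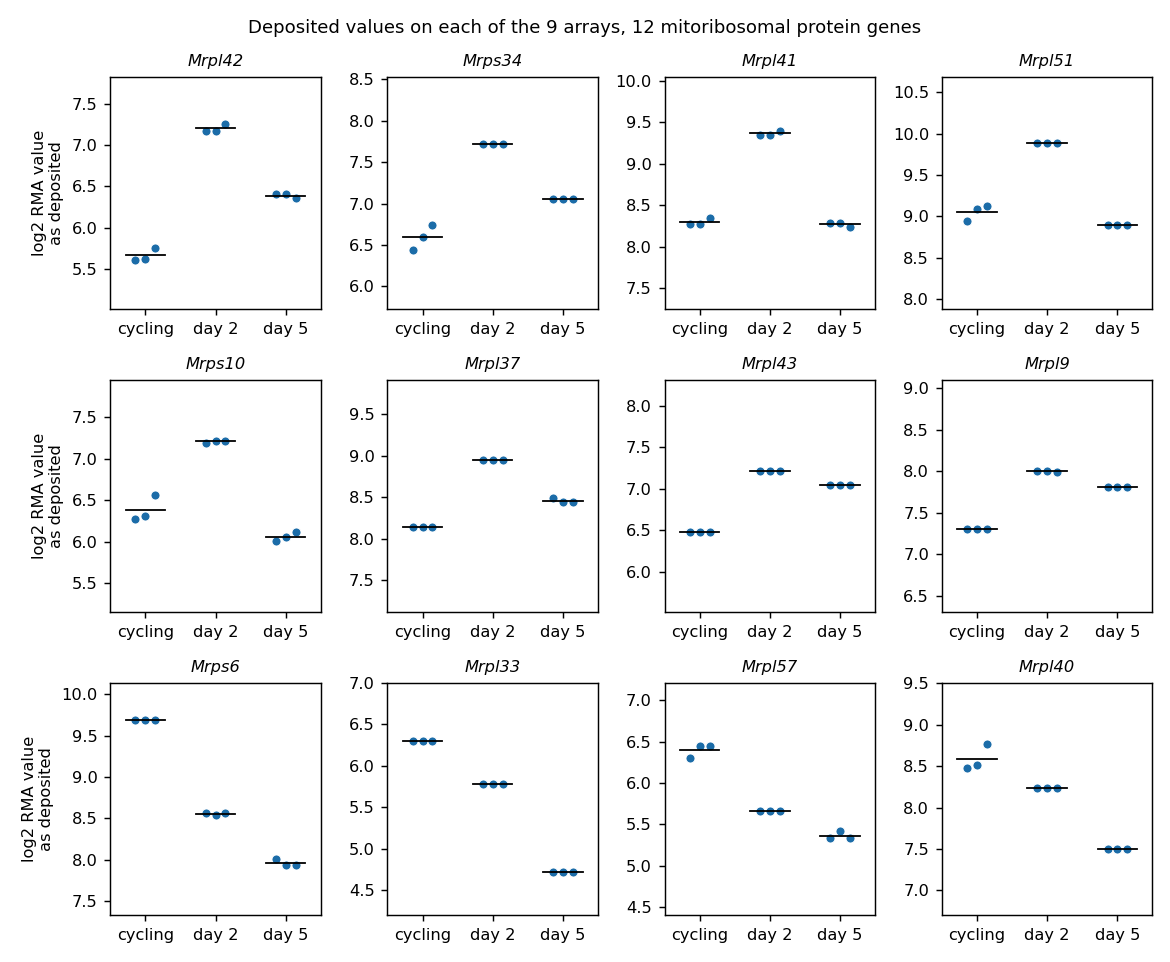
Deposited log2 RMA values of 12 mitoribosomal genes on each of the 9 arrays (points) with the mean of each time point (line, n = 3); every panel spans the same number of log2 units, so heights can be compared as changes but not as levels between genes. The upper 8 panels show genes highest at day 2 as deposited, and the lowest row shows Mrps6, Mrpl33, Mrpl57 and Mrpl40, highest in cycling myoblasts.

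Mrps6, a small subunit protein of bacterial descent, was the member that fell at day 2. It read 9.69 on every cycling array, 8.56, 8.54 and 8.56 at day 2, and 8.01, 7.94 and 7.94 at day 5. Cycling arrays were above all others, and as deposited day 5 was below day 2. Its log2FC at day 2 came to -1.13 ± 0.0197 as deposited and -1.02 ± 0.0275 on the common scale (limma adjusted p = 1.62e-09 and 6.05e-09), a level 0.455 and 0.493 times that of cycling myoblasts. In RefSeq (GRCm38.p6) the Mrps6 gene overlaps Slc5a3, a myo-inositol transporter gene, which fell too (log2FC -2.19 and -1.96 at day 2, -3.93 and -3.27 at day 5), and the part of that overlap in the Mrps6 values was not tested. In the same annotation 19 members overlap a tested gene, among them the risers Mrpl14, Mrpl37, Mrpl43 and Mrpl48, whose overlapping genes (Tmem63b, Cyb5rl, Twnk and Rab6a) were not called at day 2. Where the overlapping gene fell at day 2, Mrps6 and Mrpl57 were lower on both scales. The others had a positive log2FC on both scales: Mrpl19 (0.38 and 0.63, with Gcfc2), Mrpl27 (0.35 and 0.59, with Eme1) and Mrps2 (0.13 and 0.36, with 1700007K13Rik).

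Other members were lower on both scales at day 2 without reaching 1.5-fold on both. Mrpl57, a small mitochondria-specific protein of the large subunit, had a log2FC of -0.74 as deposited and -0.39 on the common scale, Mrpl40 of -0.35 and -0.23, and Mrpl33 of -0.51 and -0.18. Mrpl36 (-0.22 and -0.13) and Mrpl24 (-0.21 and -0.12), both of bacterial descent, followed. Relative to the members' own median, 3 genes lay at least 1.5-fold above it on both scales at day 2 (Mrpl41, Mrpl42 and Mrps34) and 4 at least 1.5-fold below (Mrps6, Mrpl57, Mrpl40 and Mrpl33), a description chosen after the values were seen. The same count was not made for all genes. From lower to upper quartile the day 2 log2FC spanned 0.46 (deposited) and 0.52 (common scale) in the members, and 0.87 and 0.75 in all genes.

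At day 5 against cycling myoblasts the direction of most members depended on the scale. Only Mrpl42 rose on both scales, and 2 members, Mrps6 and Mrpl33, fell. The rule called 9.74% of all genes higher and 20.0% lower. In 58 of 77 members the log2FC was negative as deposited and positive on the common scale, against 27.2% of all genes. All genes were not matched to the members in level, and the part of level in this difference was not tested. The members had a median of -0.28 as deposited, beside -0.37 for all genes, and 0.66 on the common scale, beside 0.17. As deposited alone, 1 member rose and 16 fell by at least 1.5-fold (9.74% and 42.3% of all genes), whereas on the common scale alone 47 rose and 2 fell (26.1% and 20.0%). Centring each array on its own median gave 10 higher and 4 lower members (21.6% and 31.1% of all genes) and a median of 0.0705. At any size, 15 members were higher and 4 lower on both scales (29.7% and 38.1% of all genes).

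Mrpl42 had a log2FC at day 5 of 0.72 ± 0.0444 as deposited and 1.69 ± 0.0397 on the common scale (limma adjusted p = 2.84e-06 and 2.09e-09). The next highest members, below 1.5-fold as deposited, were Mrpl43 (0.56 and 1.51), Mrpl9 (0.51 and 1.42), Mrpl14 (0.48 and 1.46), Mrps34 (0.46 and 1.41) and Mrps23 (0.45 and 1.20). Mrpl43, a mitochondria-specific large subunit protein with a thioredoxin-like fold, read 6.48 on every cycling array, 7.21 on every day 2 array and 7.04 on every day 5 array. Mrpl9, of bacterial descent, read 7.30 on every cycling array, 8.001, 8.001 and 7.992 at day 2 and 7.81 on every day 5 array. In both genes the later arrays were all above the cycling arrays as deposited, as they were in 15 members, and in 56 members the day 5 arrays were all below them (no overlap in either direction in 96.5% of all genes).

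Mrpl33, a small large-subunit protein of bacterial descent, read 6.30 on every cycling array, 5.79 on every day 2 array and 4.72 on every day 5 array. Its day 5 level was 0.334 times its cycling level as deposited (log2FC -1.58) and 0.599 times on the common scale (-0.74). Its replicate values were identical within each time, so an SE of its difference carries no spread between arrays. Mrps6 had a log2FC of -1.73 ± 0.0197 and -0.92 ± 0.0275 (limma adjusted p = 1.12e-10 and 1.00e-08). Mrpl40 read 8.48, 8.51 and 8.76 in cycling myoblasts, 8.23 on every day 2 array and 7.50 on every day 5 array, a log2FC at day 5 of -1.09 and -0.27. Mrpl57 read 6.30, 6.45 and 6.45, then 5.66 on every day 2 array, then 5.34, 5.42 and 5.34, a log2FC at day 5 of -1.03 and -0.10. These 4 were also the members whose mean was highest in cycling myoblasts on both scales.

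Between day 2 and day 5 the sign again depended on the scale in 58 members, negative as deposited and positive on the common scale (35.7% of all genes, again not matched for level). By the rule 0 members rose and 0 fell, with 2.2% and 10.9% of all genes called. At an unadjusted p under 0.05 and the same size the limma counts were also 0 and 0, and the shares of all genes at that p are not given here. As deposited alone 29 members fell by at least 1.5-fold (36.7% of all genes) and 0 rose (2.2%), whereas on the common scale alone 2 rose (10.7%) and 0 fell (10.9%). After median centring 0 rose and 12 fell (5.63% and 20.9%). At any size 13 members were lower on both scales and 0 higher, with 40.6% and 16.2% of all genes. The members had a median log2FC of -0.51 as deposited (-0.40 for all genes) and 0.18 on the common scale (0.05). All day 5 arrays lay below all day 2 arrays in 76 members as deposited (no overlap in either direction in 97.1% of all genes), and Mrpl2 was the member that overlapped. The lowest by both scales were Mrpl33 (-1.07 and -0.56), Mrps22 (-1.15 and -0.43), Mrps10 (-1.15 and -0.42), Mrpl41 (-1.10 and -0.42), Mrpl50 (-1.09 and -0.37) and Mrpl51 (-0.99 and -0.37).

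**Figure D3:**
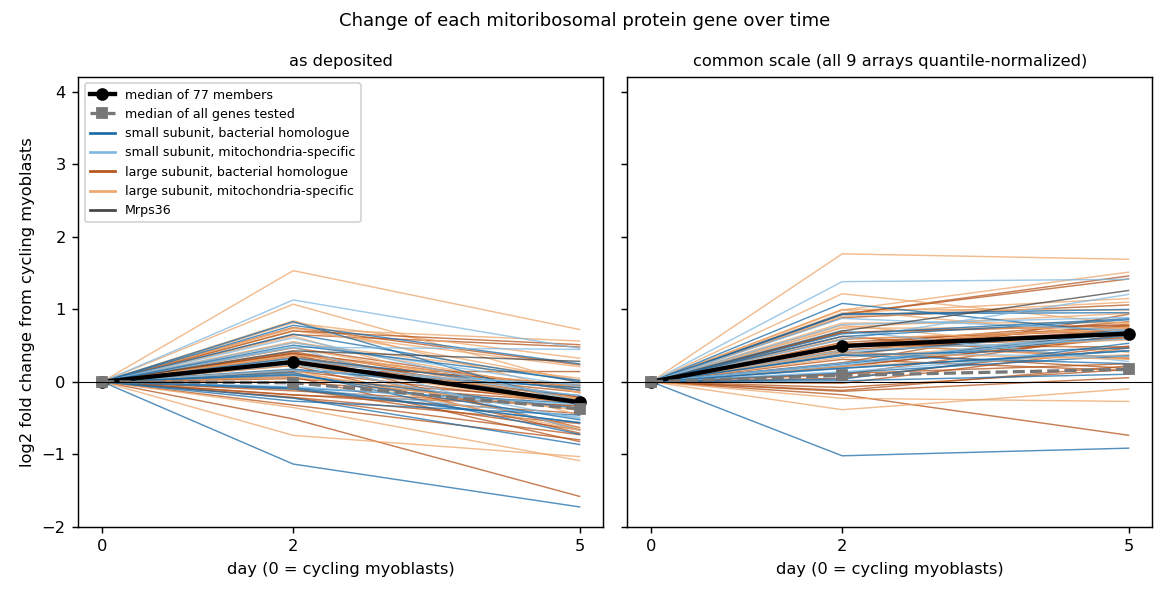
Log2 fold change from cycling myoblasts of each of the 77 mitoribosomal genes (thin lines, coloured by subunit group) at days 2 and 5, as deposited (left) and on the common scale (right), with the median of the members (black) and of all genes tested (grey, dashed). As deposited the members' median is 0.27 at day 2 and -0.28 at day 5, and on the common scale 0.49 and 0.66.

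The time of the highest mean also moved with the scale. As deposited 58 members were highest at day 2, 19 in cycling myoblasts and 0 at day 5. On the common scale 17 were highest at day 2, 4 in cycling myoblasts and 56 at day 5. Of all genes 38.8%, 47.9% and 13.3% were highest at day 2, in cycling myoblasts and at day 5 as deposited, and 24.2%, 32.3% and 43.6% on the common scale. Of the 19 members highest in cycling myoblasts as deposited, 4 stayed so on the common scale and the other 15, among them Mrpl10, Mrpl24, Mrpl36 and Mrps12, were highest at day 5.

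Mrpl12, Mrpl10 and Mrps12 did not reach 1.5-fold on both scales by day 2. Mrpl12 and Mrpl10 form the stalk that recruits translation factors. Mrpl12 read 8.07, 8.02 and 8.02 in cycling myoblasts and 8.42, 8.45 and 8.42 at day 2 (log2FC 0.39 and 0.54), with no overlap. Mrpl10 had -0.13 as deposited and -0.02 on the common scale, and only the first passed the adjusted p. Mrps12, a protein of the decoding centre, had -0.08 and 0.25, and its day 2 arrays (5.68, 5.89 and 5.68) overlapped the cycling arrays (5.72, 5.78 and 5.996). At day 5 all of them were lower as deposited and higher on the common scale (Mrpl12 -0.08 and 0.76, Mrpl10 -0.34 and 0.47, Mrps12 -0.30 and 0.64).

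The 3 Mrps18 paralogs, relatives of 1 bacterial protein, differ in their place: Mrps18a sits in the large subunit, and Mrps18b and Mrps18c in the small subunit. At day 2 Mrps18a had a log2FC of 0.34 and 0.59, Mrps18b of 0.31 and 0.43, and Mrps18c of 0.09 and 0.19, none 1.5-fold on both scales. Mrps18c as deposited did not pass the limma test at day 2 (adjusted p = 0.0916). At day 5 they had -0.24 and 0.72, -0.19 and 0.59, and -0.37 and 0.43. Mrps36, named as a small subunit protein but now known as a component of the 2-oxoglutarate dehydrogenase complex of the citric acid cycle, read 6.12, 6.24 and 6.37 in cycling myoblasts, 6.65, 6.65 and 6.71 at day 2 and 6.52 on every day 5 array. Its log2FC was 0.43 and 0.70 at day 2, and 0.28 and 1.26 at day 5.

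For 8 members the array held 2 probe sets that named the gene alone, and these can read different transcripts or near-identical copies of a gene. In 5 of the 8 they differed in sign as deposited at 1 later time. At day 2 they gave Mrpl27 0.35 and -0.25, and Mrps5 -0.08 and 0.11, the chosen probe set first. At day 5 they gave Mrpl23 -0.05 and 0.04, Mrpl41 -0.03 and 0.30, and Mrpl47 -0.30 and 0.64. On the common scale the 2 probe sets of each of these genes had a positive log2FC at those times. The Mrpl47 pair also differed at day 2, with 0.15 as deposited for the chosen and 0.97 for the other, which averaged 3.93 in cycling myoblasts, below the array median. Values of these members are uncertain by such amounts.

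Promoter windows of 250 bases before to 50 after the start were at hand for 68 members, searched on both strands. CCGGAAG stood in 25 of them (36.8%), against 15.9% of 13007 tested genes with such windows, each gene counted once. The YY1 motif AAGATGGC stood in 12 (17.6%, against 4.18%) and the NRF1 core in 8 (11.8%, against 4.91%). GGGCGG stood in 34 of the 68 (against 60.9%), CAGCTG in 11 (16.2%, against 19.1%), the Myc E-box CACGTG in 5 (7.35%, against 10.7%), the E2F motif TTTCCCGC in 1 (1.47%, against 2.01%) and the ERR motif TCAAGGTCA in 0 (against 0.331%). These shares were not tested. Members with CCGGAAG rose at day 2 in 4 of 25 cases, with median log2FC 0.29 and 0.43, and members without it in 10 of 43, with 0.23 and 0.43.

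Some mitoribosomal genes start close to another gene. How common this is among all genes was not counted. In RefSeq (GRCm38.p6), 26 of the 68 members start within 1000 bases of a gene on the opposite strand that runs away from them, which makes 25 pairs because Mrpl46 and Mrps11 face each other. Of the 22 pairs with a tested partner that is no member, 7 members and 3 partners rose at day 2, both in 1 pair (Mrpl41 and Pnpla7). In these pairs 3 partners and 0 members fell. By the same rule 13.3% of all tested genes rose and 15.4% fell, so the partners' counts lay near the shares of all genes. The partners' median log2FC was -0.08 and 0.07, the members' 0.33 and 0.49. Mrpl57 lies beside and overlaps Ska3, a kinetochore gene that fell (log2FC -4.65 and -4.33 at day 2), and the part of that overlap in the Mrpl57 values was not tested. Mrpl51 lies beside the condensin gene Ncapd2, which fell (-2.75 and -2.44). Mrpl51 counts among the 7 by its chosen probe set, while its second probe set gave 0.08 and 0.28, and which locus each reads was not checked. Mrpl46 had a log2FC of 0.55 and 0.81 at day 2 and its partner Mrps11 of 0.66 and 0.94.

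Other genes that serve mitochondrial translation were called by the same rule, by which 13.3% of all genes rose and 15.4% fell at day 2, and 9.74% and 20.0% at day 5. Of 4 ribosome subunits with other names, Dap3, Ptcd3, Chchd1 and Gadd45gip1, 0 rose and 0 fell at day 2 or day 5; Dap3, a GTP-binding protein of the small subunit, had -0.44 and -0.16 at day 2. Of 11 translation factors 0 rose and 0 fell at day 2, and 2 fell at day 5, Guf1 (-1.61 and -0.67) and Mtrf1l (-1.31 and -0.63). Of 22 factors of mitoribosome assembly and rRNA modification, 2 rose at day 2, the rRNA methyltransferase Nsun4 (0.93 and 1.18) and the helicase Ddx28 (0.65 and 0.78). In that list Gtpbp10, a GTPase of large subunit assembly, fell (-0.93 and -0.73) and fell at day 5 too, with Fastkd2. Of 16 mitochondrial tRNA synthetases 0 changed at day 2 or day 5, and of 9 genes of mitochondrial DNA upkeep and transcription 1 fell, Polg2 at day 5 (-1.01 and -0.60). Genes encoded in mitochondrial DNA were not analysed here.

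The mitoribosomal genes lay between the subunits of oxidative phosphorylation, whose core their ribosome makes, and the proteins of the cytosolic ribosome. Of 81 oxidative phosphorylation subunits 54 rose and 1 fell at day 2, with medians of 0.74 and 0.94, and 39 rose and 1 fell at day 5, with medians of 0.57 and 1.24. Of 59 cytosolic ribosomal proteins 0 rose and 4 fell at day 2, with medians of -0.26 and -0.12, and 1 rose and 7 fell at day 5, with medians of -0.87 and -0.17. The medians of the 77 mitoribosomal genes, 0.27 and 0.49 at day 2 and -0.28 and 0.66 at day 5, lay between those on both scales. By the same rule 13.3% of all genes rose and 15.4% fell at day 2, and 9.74% and 20.0% at day 5, so falls in the cytosolic list were no more frequent than in all genes. That list also holds paralogs, among them Rpl3l, the riser at day 5 (mean 3.06 in cycling myoblasts and 4.72 at day 5). The difference between the lists was not tested.

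**Figure D4:**
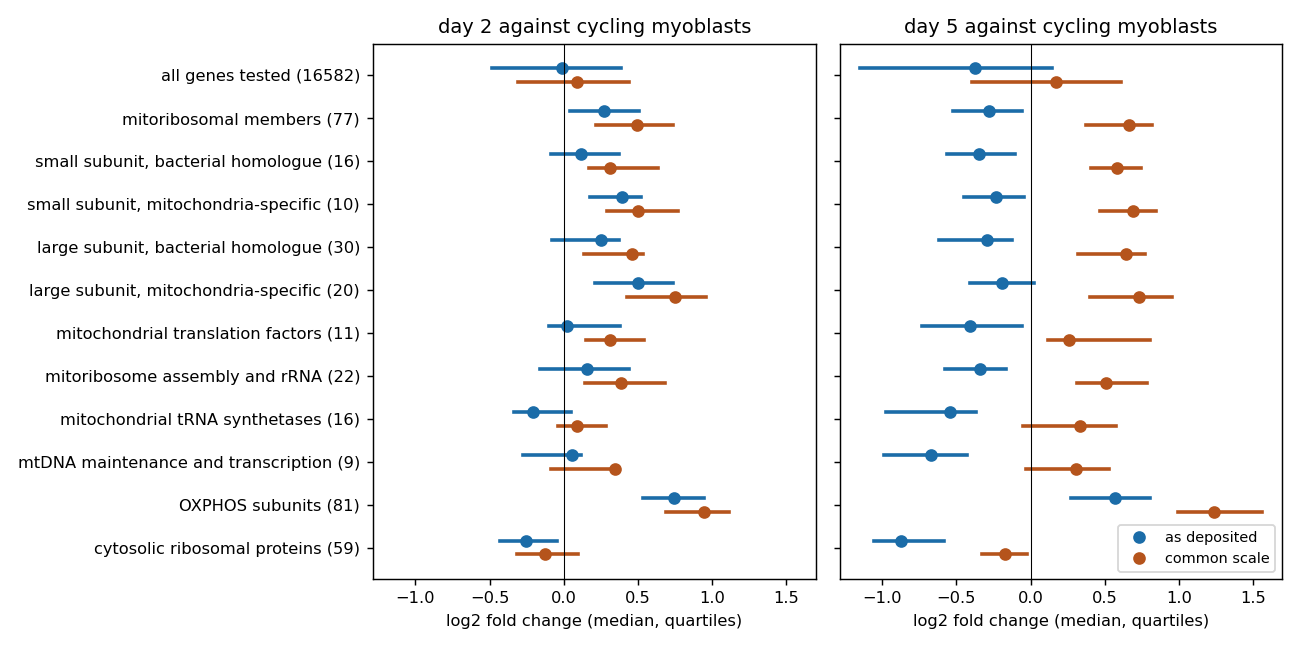
Median (point) and quartiles (line) of the log2 fold change of each gene list, as deposited (blue) and on the common scale (orange), at day 2 (left) and day 5 (right) against cycling myoblasts, with the number of genes tested in brackets. At day 2 the mitoribosomal median is above 0 on both scales, and at day 5 it is below 0 as deposited and above 0 on the common scale.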

How the data were processed

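Gene expression was measured on 9 Affymetrix arrays, 3 for each of 3 time points. The authors deposited 1 table of log2 values made with RMA, run per replicate set per the submitters' design text and processing notes; its version and the genome build are not given in the sources used here. Sorted values of arrays of 1 time point differed by at most 0.0251 on average and those of different time points by at least 0.188, so the replicate set was the time point. The table gives no measure of background or signal counts, and the number of arrays limits the precision.

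Of 35556 probe sets, the platform annotation in GEO, which can be old, named 1 gene for 21789, several for 1621 and none for 12146. The highest-mean probe set stood for a gene, and genes above the 30th percentile of the array's values on 3 or more arrays were tested. Members matched RefSeq by Entrez identifier in 77 of 77 cases, with the same symbol. A linear model of the 9 arrays with 1 mean per time point was fitted with limma 3.58.1 (R 4.3.3, lmFit and eBayes). It was run on the deposited and on quantile-normalized values, with Benjamini-Hochberg adjustment over 16582 genes. Its check on simulated data held no normalization by time point and no identical replicates, so that check says nothing about these. Calls needed an adjusted p under 0.05 and 1.5-fold on both scales.

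Members, lists, motifs and tests were chosen with earlier results of these data known. Named genes are, per comparison and direction, the 6 members with the largest smaller-of-both-scales change of 1 sign, Mrps18a, Mrps18b, Mrps18c, Mrpl10, Mrpl12, Mrps12 and Mrps36, and members whose probe sets disagree in sign; other names were chosen after their values were seen. Alternatives were each scale alone, median centring, other filters, the mean of all probe sets, limma's trend and robust options, a test against 1.5-fold (treat), a replicate block and leaving out arrays. Probe sets that name several genes were left out of the tests.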

Additional observations from a re-analysis of the deposited data

How the results depend on the processing

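The rule needs both scales, so a single scale gave as many calls or more. As deposited alone, 2 members fell at day 2 (21.3% of all genes), 16 at day 5 (42.3%) and 29 at day 5 against day 2 (36.7%). On the quantile scale alone 29 rose at day 2 (median 0.49) and 47 at day 5 (median 0.66). At day 5 against day 2 there were 2 rises (median 0.18). Of all genes 17.9%, 26.1% and 10.7% rose in these comparisons. With each array centred on its median, 19 members rose and 2 fell at day 2 (18.8% and 19.0% of all genes; median 0.35), 10 rose and 4 fell at day 5 (21.6% and 31.1%; median 0.0705), and 0 rose and 12 fell at day 5 against day 2 (5.63% and 20.9%; median -0.23). The median at day 5 thus reversed its sign on the quantile scale and after centring, and that of day 5 against day 2 on the quantile scale.

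Single genes that reversed did so mostly with the scale. At day 5 the quantile scale and centring gave Mrpl10 0.47 and 0.0163, Mrpl12 0.76 and 0.27, Mrpl23 0.73 and 0.31, Mrpl41 0.80 and 0.33, Mrpl47 0.68 and 0.0547, Mrps12 0.64 and 0.054, Mrps18a 0.72 and 0.11, and Mrps18b 0.59 and 0.16; the quantile scale gave Mrps18c 0.43. At day 2 the quantile scale gave Mrps12 0.25 and Mrps5 0.18. The mean of all probe sets gave Mrpl41 0.14 and Mrpl47 0.17 at day 5 and Mrps5 0.0141 at day 2. Leaving out each replicate number in turn gave Mrpl41 -0.0456 to 0.0125 at day 5 and Mrps12 -0.18 to 0.0336 at day 2, positive without replicate 3.

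Leaving out each replicate number gave 15 to 18 rises and 1 fall at day 2 (median 0.24 to 0.30), 1 rise and 2 falls at day 5 (median -0.30 to -0.26) and 0 of either at day 5 against day 2 (median -0.51). No filter, a filter at the 50th percentile, and limma's trend and robust options gave the main counts, and a test against 1.5-fold gave 13 rises and 1 fall at day 2. The replicate numbers share no stated culture: same-numbered arrays correlated at -0.04 to 0.11 in their deviations, and the replicate block left 16 rises and 1 fall at day 2, 1 and 2 at day 5, and 0 and 0 between them. Shares of all genes under the alternatives in this paragraph are not given here, so these counts do not show whether the members kept their distance from all genes.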

Other observations

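Mrpl53, a mitochondria-specific protein of the large subunit, is read on this array by a probe set that also names Ccdc142 and so stood outside the members. That probe set averaged 5.79 ± 0.161 before differentiation, 5.85 at day 2 and 5.60 ± 0.00415 at day 5 (SD, n = 3). It gave a log2 fold change of 0.0587 (deposited) and 0.38 (common scale) at day 2, and -0.19 and 0.76 at day 5, values that cannot be assigned to either gene.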
